A study of Arabidopsis thaliana with 16 samples.

Results

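The comparison described here is the difference between genotypes in the response of Arabidopsis thaliana seedlings to strong shade. It was measured as the change in strong shade relative to white light in the phyA mutant, minus the same change in the wild type, so a positive value means that the phyA response was higher. It rests on 10 of the 16 Affymetrix ATH1 arrays of the series. These are 3 arrays of phyA in strong shade, 2 of phyA in white light, 3 of WT in strong shade and 2 of WT in white light. The mutant carries phyA-211, a null allele of PHYA in the Col-0 background, and WT is Col-0. All seedlings were raised in continuous white light for 5 days and then spent 24 h in their treatment, and RNA came from whole seedlings. Strong shade was LED light with 3 µmol of red, 3.5 µmol of blue and 30 µmol of far-red light per square metre and second, a red to far-red ratio of 0.1. White light continued at about 45 µmol per square metre and second, so the treatments also differed in spectrum and in the total of visible light. The design text calls the arrays biological replicates and does not say how plates or days were divided among them. Of 22746 probe sets, 833 passed the test for a difference between the 2 responses.

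Phytochrome A is the far-red light receptor of seedlings. It accumulates in the dark and in light rich in far-red, enters the nucleus with the help of the shuttle proteins FHY1 and FHL, and there acts against phytochrome-interacting factors and promotes regulators such as HY5 and HYH. In canopy shade, loss of phytochrome B activity lets stems elongate, and phytochrome A is known to restrain that elongation when far-red light is abundant.

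Array medians lay between 13.5 and 15.1 on the linear intensity scale, and all values lay between 2.33 and 6167. The annotation used here lists no probe set for PHYA alone, so the mutation could not be checked in the values. Rubisco activase (RCA), abundant in green tissue, had log2 intensities of 10.21 to 12.22 in the 10 arrays. Among the measured root markers, PYK10 was bright, with 9.58 to 11.28 in the same arrays. EXPA7 (2.89 to 4.36) and EXPA18 (2.46 to 4.83) were much dimmer. Green tissue thus contributed RNA, and the sign of root RNA in these values rests on PYK10 alone. One array stood apart. The library labelled phyA strong shade 3 correlated at r = 0.979 to 0.983 with the other arrays of its group across probe sets, and at 0.991 to 0.992 with phyA shade 1 and 2. The library labelled phyA shade 3 had r = 0.986 with the arrays of its group, below its r of 0.993 to 0.994 with phyA strong shade 1 and 2. Within the 4 groups compared, leaving out phyA strong shade 3, arrays of one group correlated at 0.993 to 0.994. The labels do not show whether the 2 libraries were exchanged, and this was not tested. If they were, the strong shade and the shade values of phyA below would each hold an array of the other light. Counts, and the genes whose call changes, are therefore also given without phyA strong shade 3, or without both.

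The difference of responses was called for 833 probe sets (3.66% of 22746) at an adjusted p under 0.05, by limma's moderated test with Benjamini-Hochberg adjustment over all probe sets. The phyA response was the higher one for 254 of them (1.12%) and the lower one for 579 (2.55%). At an unadjusted p under 0.05 there were 3502. The responses themselves were far more widespread, with 9556 probe sets called in phyA (42.0%) and 8922 in WT (39.2%). Across probe sets the 2 responses correlated at r = 0.879, a description that rests on shared RMA processing and on genes that are not independent. A called difference was found for 12.2% of the 4609 probe sets that fell in phyA and 3.52% of the 4947 that rose in phyA. For WT, the shares were 8.31% of the 4825 that fell and 3.51% of the 4097 that rose. In whole seedlings, fewer cells of a type and less RNA per cell cannot be told apart, here or below. The count was 926 without phyA strong shade 3 and 733 of the 833 were among them. It was 463 without phyA white 1, 533 without phyA white 2 and 471 without WT white 2, and 369 of the 833 were called whichever of the 10 arrays was left out.

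**Figure D1:**
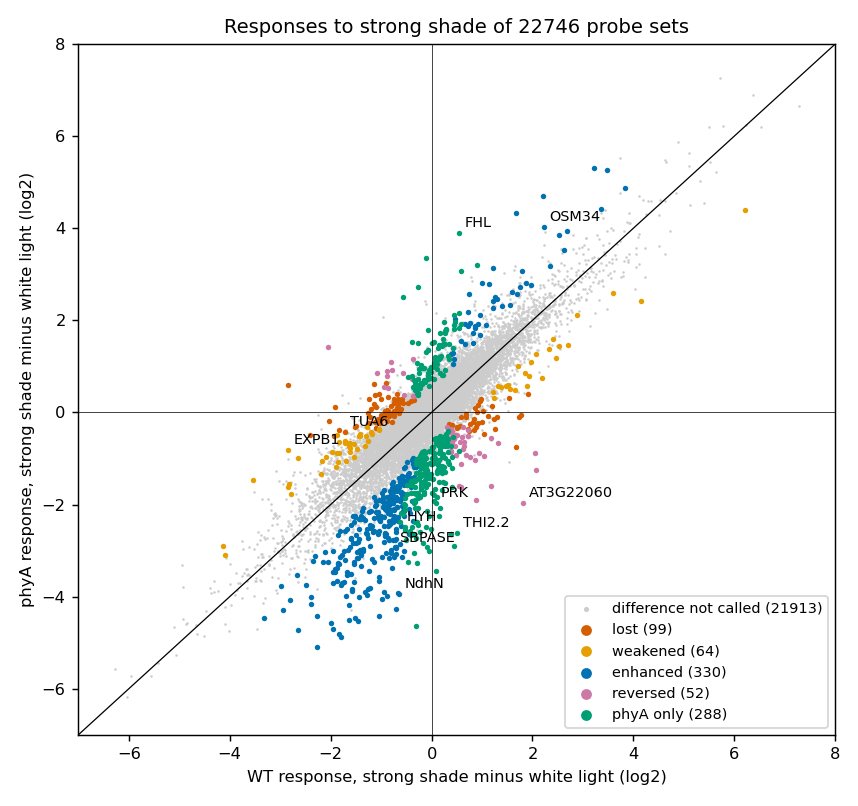
Each point is a probe set, with its WT response on the x axis and its phyA response on the y axis (strong shade minus white light, log2), coloured by class. The diagonal marks equal responses. Most coloured points lie below it, 579 of 833, and the largest group is the 330 enhanced responses, mostly at lower left.

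Few probe sets were called between genotypes without shade. In white light, with 2 arrays per genotype, phyA against WT was called for 35 probe sets (0.154%), and in strong shade for 2659 (11.7%). Of the 833 probe sets, 773 were also called between genotypes in strong shade and 21 in white light. The tested difference is the genotype difference in strong shade minus that in white light, on the same arrays. These 2 counts are therefore not separate tests of the 833, and fewer arrays make a call in white light harder to reach. For 71 of them, the genotype difference in white light was larger than that in strong shade.

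Sorted by the responses called in each genotype, the 833 fell into 5 classes. A response was enhanced when both genotypes responded the same way and phyA by more. This held for 330 probe sets, of which 283 fell further in phyA and 47 rose further. A response called in phyA and not in WT was found for 288 probe sets, 199 of them with a lower and 89 with a higher phyA response. Lost responses, called in WT and not in phyA, numbered 99. Of these, 64 had fallen and 35 had risen in WT. Weakened responses, of the same sign and smaller in phyA, numbered 64, with 40 that fell and 24 that rose in both genotypes. Reversed responses numbered 52, of which 38 fell in phyA and rose in WT, and 14 rose in phyA and fell in WT. No called probe set lacked a response in both genotypes.

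Class sizes depended on the arrays used. Without phyA strong shade 3 and phyA shade 3, the difference was called for 1236 probe sets, with 552 enhanced, 391 responding in phyA only, 120 lost, 92 weakened and 81 reversed. The lost class held 47 probe sets without phyA white 1, 62 without phyA white 2, 62 without WT strong shade 3, 63 without WT white 1 and 43 without WT white 2. The weakened class held 40 without phyA strong shade 1, 21 without phyA white 1, 25 without phyA white 2, 38 without WT strong shade 3, 33 without WT white 1 and 23 without WT white 2. The enhanced class held 204 without phyA white 1, 191 without WT white 1 and 179 without WT white 2. The reversed class held 34 without phyA white 1 and 29 without WT white 2. The phyA-only class held 157 without phyA white 1 and 175 without phyA white 2. At the threshold itself, AT4G36680 was just inside (0.95 ± 0.251 log2, SE; adjusted p = 0.04981) and AT5G48020 just outside (0.85 ± 0.225; 0.05004).

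**Figure D2:**
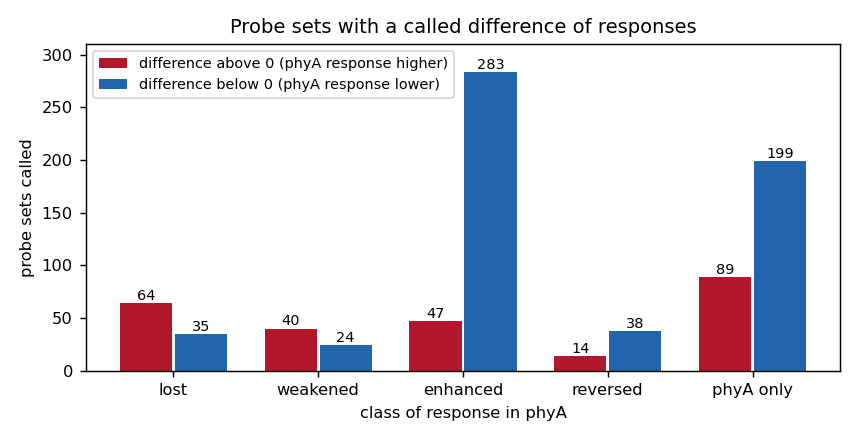
Bars give the number of probe sets in each class of response (x axis), split by the sign of the difference of responses, phyA minus WT. The tallest bars are the 283 stronger decreases of the enhanced class and the 199 lower responses seen in phyA only.

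The gene lists used here and below held 560 entries, of which 170 were measured, so most members have no value. Of 18 carbon fixation entries, 3 were measured. All 3 were called lower, with a median difference of -2.04. The first is SBPASE (AT3G55800), sedoheptulose-bisphosphatase of the Calvin cycle. It had log2 intensities of 7.35, 7.30 and 7.21 in phyA in strong shade and 10.26 and 10.17 in phyA in white light, against 9.72, 9.61 and 9.90 in WT in strong shade and 10.46 and 10.49 in WT in white light. Among these 4 groups the phyA strong shade arrays lay below all others, and in moderate shade phyA was nearly as low, with 7.38, 7.61 and 7.67. The phyA response was -2.93 and the WT response -0.73, a difference of -2.2 ± 0.175 (SE; limma adjusted p = 5.98e-06).

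PRK (AT1G32060), phosphoribulokinase, had 9.14, 9.24 and 8.78 in phyA in strong shade and 10.91 and 11.11 in phyA in white light, against 11.16, 11.05 and 11.13 in WT in strong shade and 11.02 and 11.04 in WT in white light. Only the phyA strong shade arrays were low among these 4 groups. The difference was -2.04 ± 0.247 (adjusted p = 0.000144), with a phyA response of -1.96 and a WT response of 0.08 that was not called. RCA, which reactivates Rubisco, had 10.35, 10.21 and 10.79 in phyA in strong shade and 12.15 and 11.91 in phyA in white light, against 11.93, 11.76 and 12.11 in WT in strong shade and 12.22 and 12.07 in WT in white light. Its difference was -1.37 ± 0.246 (adjusted p = 0.00373). All 3 genes were called whichever array was left out. Beside the 3 of 3, 286 of all 13350 genes with a probe set of their own were called lower and the median difference over all of them was 0.06.

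The chloroplast NDH complex carries cyclic electron flow around photosystem I. Of 6 measured genes of this complex and of electron flow control, 2 were called lower, all 6 differences were below 0, and their median was -1.23. Over all 13350 genes, 286 were called lower and the median difference was 0.06. NdhN (AT5G58260), a subunit, had 3.6, 3.78 and 4.70 in phyA in strong shade and 8.01 and 7.92 in phyA in white light, against 7.71, 7.41 and 7.78 in WT in strong shade and 8.27 and 8.29 in WT in white light. Among these 4 groups the phyA strong shade arrays did not overlap the rest, and phyA strong shade 3 was the highest of them. The difference was -3.29 ± 0.345 (adjusted p = 4.63e-05), and -3.63 without that array.

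NdhL (AT1G70760), another subunit, had 5.70, 5.72 and 5.62 in phyA in strong shade and 8.14 and 8.12 in phyA in white light, against 7.87, 7.54 and 7.92 in WT in strong shade and 8.05 and 8.01 in WT in white light. Its phyA response of -2.45 stood beside a WT response of -0.26 that was not called, a difference of -2.19 ± 0.193 (adjusted p = 1.17e-05). Cpn60beta4, a chaperonin subunit needed to fold an NDH protein, is not on that list. Its difference was -2.2 ± 0.337 (adjusted p = 0.00112). CaS, a thylakoid calcium sensor, had a difference of -2.70 ± 0.763 that was not called (adjusted p = 0.0666). In phyA in strong shade it had 4.66, 4.31 and 6.75, against 8.20, 7.62 and 8.36 in WT in strong shade. Without phyA strong shade 3, its difference was -3.46 and called (adjusted p = 0.000516).

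LrgB (AT1G32080), the plastid glycolate and glycerate transporter of photorespiration, had 4.26, 4.66 and 4.93 in phyA in strong shade and 9.19 and 9.06 in phyA in white light. In WT it had 7.74, 7.37 and 8.12 in strong shade and 9.32 and 9.43 in white light. It fell in both genotypes, with responses of -4.51 in phyA and -1.63 in WT, and the difference was -2.87 ± 0.345 (adjusted p = 0.000138). The other measured photorespiration gene, the hydroxypyruvate reductase HPR, had a difference of -0.71 ± 0.189 that was not called (adjusted p = 0.0504), and -0.57 that was (adjusted p = 0.0338) with phyA strong shade 3 and phyA shade 3 left out. HCF101, which assembles iron-sulphur clusters for photosystem I, had responses of -2.69 in phyA and -0.93 in WT, a difference of -1.75 ± 0.183 (adjusted p = 4.63e-05). HCF101 and the following gene are named after their values were seen. FUG1, a plastid translation initiation factor, had a difference of -1.31 ± 0.169 (adjusted p = 0.000263).

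Light harvesting and photosystem genes had a median difference nearer to 0. Of 55 entries on this list, 9 were measured. Of these 9, 5 were called lower, none higher, and all 9 differences were below 0, with that median at -0.73. Over all 13350 genes, 286 were called lower and 126 higher, with a median of 0.06. In the responses themselves, all 9 fell in phyA and 6 fell in WT. The called genes were LHCB4.3 (-1.60), PSBY (-0.91), ATPC1 (-0.90), PSAN (-0.78) and PSBW (-0.73). The first is an antenna protein, ATPC1 is the gamma subunit of the chloroplast ATP synthase, and the others are small photosystem subunits. With phyA strong shade 3 and phyA shade 3 left out, 6 genes were called lower. The added gene was PSAE-1 (-0.64, adjusted p = 0.0422; with all arrays -0.59, adjusted p = 0.0907). LHCB4.3 was called whichever array was left out. PSBY was not called without WT white 1 (adjusted p = 0.062) and ATPC1 was not called without phyA white 1 or WT white 1 (up to 0.104). PSAN was not called without any 1 of the white light arrays or of the WT strong shade arrays (up to 0.143), and PSBW held in only 2 of the 10 leave-one-out fits (up to 0.189), those without phyA strong shade 3 and WT strong shade 2.

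Chlorophyll and tetrapyrrole genes gave 1 call of 9, a lower one, beside 286 lower of all 13350 genes. Their median difference was -0.42, against 0.06 over all genes. Both genotypes lowered most of them, 7 in phyA and 6 in WT. CHLI2, a subunit of magnesium chelatase, had responses of -3.54 in phyA and -2.66 in WT and a difference of -0.87 ± 0.201 (adjusted p = 0.0227). That call ended without phyA strong shade 1, phyA white 1, WT strong shade 3, WT white 1 or WT white 2 (adjusted p up to 0.137). The single measured carotenoid gene, lycopene cyclase (LYC), had a difference of -0.67 ± 0.164 (adjusted p = 0.0321). It was not called in 8 of the 10 leave-one-out fits, the exceptions being those without phyA strong shade 2 and WT white 1 (adjusted p up to 0.172).

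Thioredoxins relay reducing power from photosystem I to Calvin cycle and other enzymes. Of 6 genes named as thioredoxins or thioredoxin reductase, a group put together after the values were seen, 4 were called lower and none higher. Of all 13350 genes, 286 were called lower. As the group was chosen late, its count is no result about the family. TRXF2, an f-type thioredoxin, had 6.09, 5.89 and 5.88 in phyA in strong shade and 8.06 and 7.98 in phyA in white light, against 6.94, 7.0 and 6.98 in WT in strong shade and 7.92 and 7.89 in WT in white light. It fell in both genotypes and further in phyA, with a difference of -1.14 ± 0.154 (adjusted p = 0.000416). THX had -0.88, ty2 -0.85 and NTRC -0.86. TRXF2 and THX were called whichever array was left out. The call of ty2 ended without phyA white 1 or WT white 1 (adjusted p up to 0.0736), and NTRC was called in 2 of the 10 leave-one-out fits, those without phyA strong shade 3 and WT strong shade 1 (up to 0.183).

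Several of the largest enhanced differences belonged to genes named here by locus only. AT1G65230 had 3.89, 3.79 and 4.32 in phyA in strong shade and 8.25 and 8.29 in phyA in white light, against 7.73, 7.6 and 7.91 in WT in strong shade and 8.38 and 8.52 in WT in white light. Its phyA response was -4.27 and its WT response -0.70, a difference of -3.57 ± 0.307 (adjusted p = 9.8e-06). AT3G48420 (-3.37), AT1G27480 (-3.27) and AT1G65490 (-2.95) had similar values, with phyA responses of -3.93 to -4.46 and WT responses of -0.66 to -1.51. In phyA only, AT2G04790 (-3.02) and AT1G78995 (-2.83) had the lowest differences without a gene name. All 6 were called whichever array was left out.

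Of 69 measured plastid-encoded genes, 1 was called lower and none higher, beside 286 lower and 126 higher of all 13350 genes. Among the 69, 59 differences lay below 0 and the median was -0.32, against 0.06 over all genes. Without phyA strong shade 3, 4 were called lower. The single call, psbN, encodes a small protein needed to assemble photosystem II, and its response was reversed. It had 7.07, 7.48 and 7.87 in phyA in strong shade and 8.59 and 8.43 in phyA in white light, against 8.23, 8.41 and 8.52 in WT in strong shade and 7.48 and 7.58 in WT in white light. The phyA minus WT difference of psbN was 0.98 in white light, not called (adjusted p = 0.116), and -0.92 in strong shade (adjusted p = 0.00181). The difference was -1.90 ± 0.270 (adjusted p = 0.000608), with a phyA response of -1.04 and a WT response of 0.86.

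**Figure D3:**
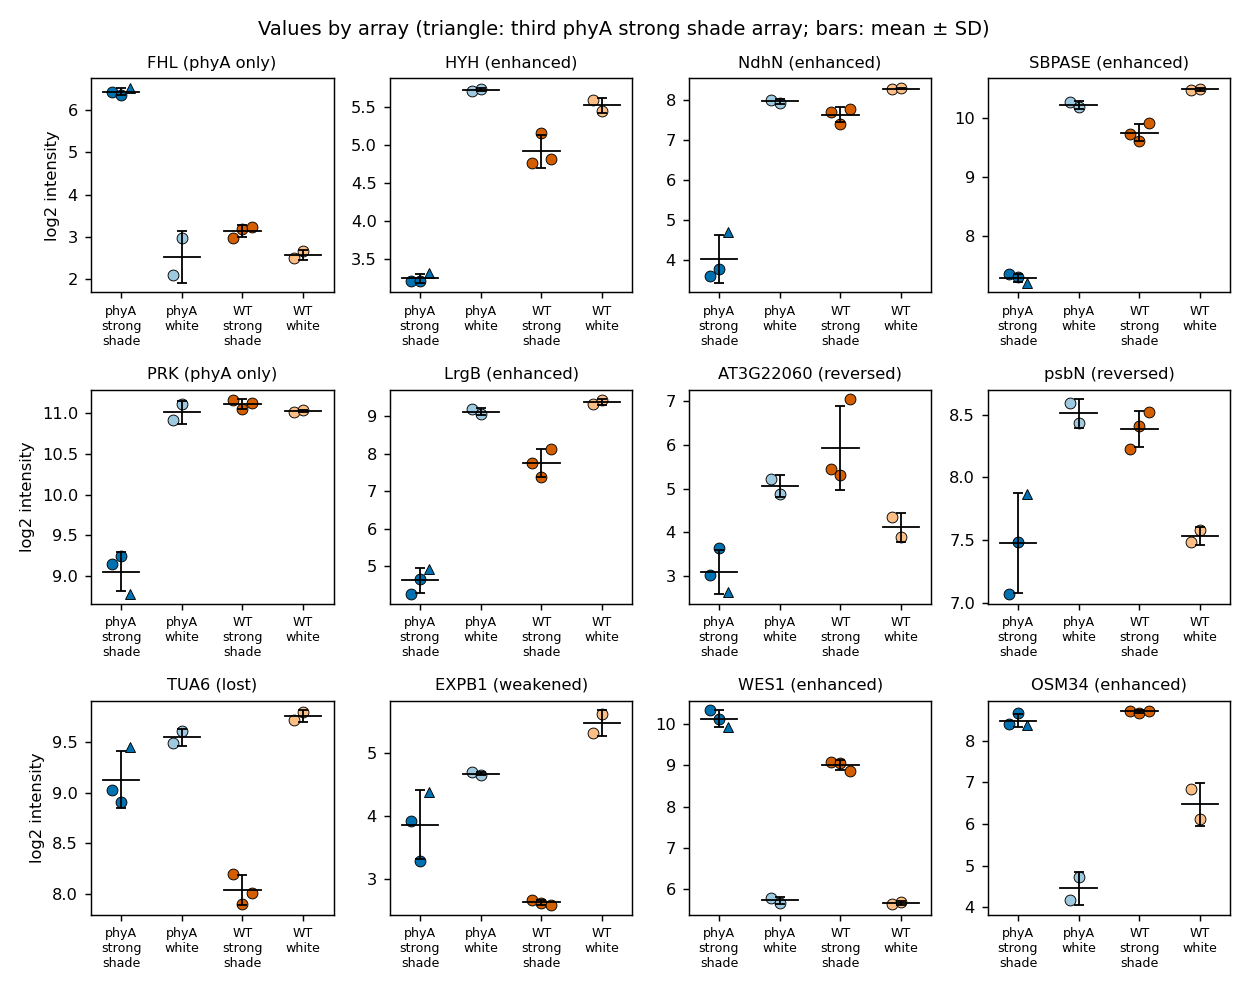
Log2 intensity of 12 genes in each array of the 4 groups compared, with group mean and SD (n = 3 in strong shade, n = 2 in white light) and phyA strong shade 3 as a triangle. SBPASE, PRK, NdhN and LrgB are lowest in the phyA strong shade arrays, FHL is highest there, and OSM34 separates the genotypes in white light.

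Reversed responses included another gene linked to NDH activity. PIFI (AT3G15840) had 8.60, 8.72 and 8.55 in phyA in strong shade and 9.29 and 9.23 in phyA in white light, against 9.53, 9.58 and 9.79 in WT in strong shade and 9.14 and 8.99 in WT in white light. Its response was -0.64 in phyA and 0.57 in WT, a difference of -1.21 ± 0.162 (adjusted p = 0.000393). The largest reversed difference of a probe set with 1 gene was that of AT3G22060, -3.78 ± 0.609 (adjusted p = 0.00166). It had 3.02, 3.63 and 2.62 in phyA in strong shade and 5.23 and 4.87 in phyA in white light, against 5.44, 5.32 and 7.05 in WT in strong shade and 4.35 and 3.88 in WT in white light. The 3 WT strong shade arrays spread widely, and all 3 lay above every phyA strong shade array. In moderate shade WT was low as well, with 3.19, 3.14 and 3.38, beside 2.60, 2.54 and 3.56 in phyA.

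AT4G21870 (-2.79), AT5G17670 (-2.14), AT4G18740 (-2.0) and AT2G37540 (-1.98) also fell in phyA and rose in WT. The call of AT4G18740 ended without WT white 2 (adjusted p = 0.0649), and the others held whichever array was left out. In the opposite sense, AT5G61660 had 7.57, 7.18 and 7.98 in phyA in strong shade and 6.82 and 6.61 in phyA in white light, against 5.81, 5.06 and 5.33 in WT in strong shade and 6.55 and 6.41 in WT in white light. The 2 genotypes moved apart from nearly equal levels, with a difference of 1.93 ± 0.369 (adjusted p = 0.00608). AT5G48900 (1.79) and AT2G47440 (1.51) also rose in phyA and fell in WT. AT5G41900 (1.42) did so too, but was not called without phyA white 1 or WT white 1 (adjusted p up to 0.0613). AT5G05400 (0.73) was called with all arrays and in none of the 10 leave-one-out fits (adjusted p up to 0.17).

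Of 16 entries for phytochrome A signalling, 2 were measured, and both changed, in opposite directions. Of all 13350 genes, 126 were called higher and 286 lower. FHL (AT5G02200), the nuclear import partner of phytochrome A, had 6.42, 6.37 and 6.52 in phyA in strong shade and 2.1 and 2.97 in phyA in white light, against 2.97, 3.2 and 3.24 in WT in strong shade and 2.50 and 2.66 in WT in white light. Of these 4 groups, phyA in strong shade was high with its arrays close together, and the rest were dim. The difference was 3.35 ± 0.355 (adjusted p = 4.85e-05), from a phyA response of 3.90 and a WT response of 0.55 that was not called (adjusted p = 0.0981). HYH (AT3G17609), a bZIP factor related to HY5 that promotes light-regulated genes, had 3.22, 3.22 and 3.32 in phyA in strong shade and 5.71 and 5.74 in phyA in white light, against 4.77, 5.16 and 4.82 in WT in strong shade and 5.59 and 5.45 in WT in white light. It fell in both genotypes, with responses of -2.47 in phyA and -0.60 in WT, a difference of -1.87 ± 0.195 (adjusted p = 4.63e-05).

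Of 5 measured shade-induced genes, 2 were called higher, FHL and BIM1, beside 126 higher of all 13350 genes. BIM1, a bHLH partner of brassinosteroid signalling, had 6.81, 6.70 and 6.67 in phyA in strong shade and 5.36 and 5.67 in phyA in white light, against 5.64, 5.79 and 5.64 in WT in strong shade and 5.56 and 5.52 in WT in white light. Of these 4 groups phyA in strong shade was high, with a difference of 1.06 ± 0.159 (adjusted p = 0.000912). The phyA response of BIM1 was 1.21, and its WT response of 0.15 was not called (adjusted p = 0.342). FHL, counted above under phytochrome A signalling too, also had no called WT response. In moderate shade BIM1 had a like level in phyA, with 6.81, 6.79 and 6.68. The other 3, which did have a called rise in WT, had no called difference. IAA29 had 0.38 ± 0.573, with phyA and WT responses of 3.97 and 3.59. HAT2 had 0.10 ± 0.320, with 1.28 and 1.18. YUC2, an auxin biosynthesis enzyme, had -0.24 ± 0.206, with 0.54 and 0.78.

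Among 7 measured genes of auxin response and transport, 2 were called higher and none lower, and the median difference was 0.48, against 0.06 over all genes, of which 126 of 13350 were called higher. IAA30, of the Aux/IAA repressor family, had 4.23, 3.85 and 4.08 in phyA in strong shade and 2.80 and 3.15 in phyA in white light, against 3.33, 3.03 and 2.76 in WT in strong shade and 3.29 and 3.35 in WT in white light. Its difference was 1.36 ± 0.232 (adjusted p = 0.00252). WES1, a GH3 enzyme that conjugates auxin to amino acids, had 10.33, 10.13 and 9.93 in phyA in strong shade and 5.78 and 5.67 in phyA in white light, against 9.09, 9.06 and 8.87 in WT in strong shade and 5.63 and 5.69 in WT in white light. It rose strongly in both genotypes and further in phyA, with a difference of 1.06 ± 0.181 (adjusted p = 0.00258). AT2G28400 rose even further, by 5.26 in phyA and by 3.48 in WT. These 3 calls held whichever array was left out.

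Some cell wall loosening genes and tubulins fell less in phyA, or rose. Of 13 measured expansins and xyloglucan endotransglucosylases (XTHs), 2 were called higher and none lower, beside the same 126 of 13350. Their median difference was 0.50, and 0.20 without phyA strong shade 3 and phyA shade 3. EXPB1, a beta-expansin, had 3.92, 3.29 and 4.37 in phyA in strong shade and 4.69 and 4.65 in phyA in white light, against 2.67, 2.62 and 2.59 in WT in strong shade and 5.32 and 5.61 in WT in white light. It fell in both genotypes and by less in phyA, and phyA minus WT was -0.79 in white light, not called (adjusted p = 0.614). The difference was 2.03 ± 0.390 (adjusted p = 0.00648), and it was just not called without WT white 2 (adjusted p = 0.0501). XTH19 rose by 1.5 in phyA, against a WT response of -0.27, a difference of 1.77 ± 0.403 (adjusted p = 0.0206). That call ended without phyA white 1, phyA white 2, WT strong shade 1 or WT white 2 (adjusted p up to 0.149).

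Of 7 tubulin genes, grouped after their values were seen, 4 were called higher and none lower, beside 126 higher of all 13350 genes. As the group was chosen late, this count is no result about the family. TUA6 (AT4G14960), an alpha-tubulin, had 9.03, 8.91 and 9.45 in phyA in strong shade and 9.49 and 9.61 in phyA in white light, against 8.19, 7.90 and 8.01 in WT in strong shade and 9.72 and 9.80 in WT in white light. The phyA response of -0.42 was not called (adjusted p = 0.0794), and the WT response was -1.72. The difference was 1.3 ± 0.259 (adjusted p = 0.00824). TUB1 (1.41), TUB7 (1.12) and TUB6 (1.1) are beta-tubulins, classed as lost, weakened and called in phyA only. TUA6 was classed as lost too. With phyA strong shade 3 and phyA shade 3 left out, TUA6 and TUB1 were classed as weakened, so their fall in phyA was then called. TUB9 (0.62), TUB5 (0.33) and TUA1 (-0.20) were not called. Tubulin genes are close in sequence, and cross-hybridisation among them was not tested. TUA6 was not called without phyA white 1 (adjusted p = 0.0532), TUB1 without phyA white 1, WT white 1 or WT white 2 (up to 0.0768), and TUB6 without any 1 of the 4 white light arrays (up to 0.0878).

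Among lost responses of probe sets with 1 gene, the largest difference was 2.02 ± 0.341 for AT4G18970 (adjusted p = 0.00236). It had 7.21, 6.72 and 7.61 in phyA in strong shade and 7.11 and 7.04 in phyA in white light, against 5.20, 4.91 and 5.36 in WT in strong shade and 7.18 and 6.97 in WT in white light. Of these 4 groups WT in strong shade was low, and the rest lay together. DRT100 had the same pattern, with responses of 0.40 in phyA, not called, and -1.04 in WT. Its difference was 1.44 ± 0.275 (adjusted p = 0.00608). CSLC04, a synthase of the xyloglucan backbone, had a difference of 1.3 ± 0.322 (adjusted p = 0.035). It was called in 3 of the 10 leave-one-out fits, those without phyA strong shade 2, WT strong shade 3 and WT white 1 (adjusted p up to 0.207).

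Increases in WT that were lost in phyA included THIC (AT2G29630), the enzyme that makes the pyrimidine part of thiamin. It had 8.50, 8.30 and 8.35 in phyA in strong shade and 8.42 and 8.50 in phyA in white light, against 9.51, 9.27 and 9.54 in WT in strong shade and 8.37 and 8.27 in WT in white light. Of these 4 groups WT in strong shade was high, as was WT in moderate shade with 9.29, 9.34 and 9.45, and the difference was -1.20 ± 0.168 (adjusted p = 0.000557). AT1G35420 showed the same, with a phyA response of -0.35 that was not called, a WT response of 1.25 and a difference of -1.61 ± 0.204 (adjusted p = 0.000216). Sulfiredoxin (SRX), which repairs oxidised peroxiredoxins, had a WT response of 0.68 and a difference of -0.79 ± 0.146 (adjusted p = 0.005). These 3 held whichever array was left out. GME, an enzyme of ascorbate synthesis, had -0.99 ± 0.226 (adjusted p = 0.0208), but not without phyA white 1, phyA white 2, WT strong shade 3, WT white 1 or WT white 2 (up to 0.0971).

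In some genes the genotypes differed mainly in white light. OSM34, an osmotin-like defence protein, had 8.41, 8.66 and 8.37 in phyA in strong shade and 4.17 and 4.73 in phyA in white light, against 8.73, 8.68 and 8.71 in WT in strong shade and 6.84 and 6.11 in WT in white light. Its enhanced response (difference 1.80 ± 0.288, adjusted p = 0.00162) thus lay with a phyA minus WT difference of -2.02 in white light, beside -0.22 in strong shade. DFR, dihydroflavonol reductase of anthocyanin synthesis, had 2.03, 1.88 and 2.02 in phyA in strong shade and 4.84 and 4.38 in phyA in white light, against 1.97, 1.88 and 2.06 in WT in strong shade and 3.25 and 3.23 in WT in white light. Here phyA was higher in white light by 1.37, both genotypes were among the dimmest values in strong shade, and the difference was -1.36 ± 0.210 (adjusted p = 0.00117).

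RR16, a type-A response regulator of cytokinin signalling, was higher in phyA by 0.87 in white light (adjusted p = 0.0224), beside 0.05 in strong shade that was not called. Its strong shade values were among the dimmest, with 2.08, 2.08 and 1.90 in phyA and 2.09, 1.83 and 1.99 in WT. Equal levels and the size of the fall are thus hard to judge there. For LHCB4.3, phyA minus WT was 1.03 in white light, not called (adjusted p = 0.109), and -0.57 in strong shade (adjusted p = 0.0485). The RR16 difference of responses, -0.82 ± 0.187, (adjusted p = 0.02) was not called without phyA white 1, WT strong shade 1 or WT white 1 (up to 0.131), and ARR15, the other of 2 measured, had -0.22 and was not called. AT5G43450 rose in both genotypes, by 1.46 in phyA and by 2.70 in WT, and was higher in phyA in white light by 1.06 (adjusted p = 0.000968). Of 4 measured flavonoid and anthocyanin genes, 3 were called lower, beside 286 of all 13350 genes. For UF3GT, phyA minus WT was 0.99 in white light, not called (adjusted p = 0.0533), and -0.03 in strong shade. For UGT78D2 it was instead -0.38 in white light, not called (adjusted p = 0.619), and -1.13 in strong shade (adjusted p = 9.06e-06). The calls of UF3GT (-1.02) and UGT78D2 (-0.75), both glycosyltransferases, held in 4 and in 2 of the 10 leave-one-out fits. UF3GT was not called without phyA strong shade 1, phyA white 1, WT strong shade 2 or 3, or WT white 1 or 2 (adjusted p up to 0.154). UGT78D2 held only without phyA strong shade 1 and WT strong shade 3 (up to 0.163).

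Of 4 measured defence genes, 1 was called higher, OSM34, and 1 lower, beside 126 higher and 286 lower of all 13350 genes. THI2.2, a thionin, had 6.03, 6.27 and 5.90 in phyA in strong shade and 8.83 and 8.53 in phyA in white light, against 8.92, 7.98 and 9.44 in WT in strong shade and 8.12 and 8.43 in WT in white light. The WT strong shade arrays spread over more than 1 log2 unit, and the phyA strong shade arrays lay below all of them. In moderate shade WT was low as well, with 6.54, 6.94 and 6.80, beside 6.31, 6.09 and 6.15 in phyA. The difference was -3.11 ± 0.407 (adjusted p = 0.000284). THI2.1 (-0.14) and PDF1.2 (-0.05) were not called.

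Other lists held no called difference, at an overall share of 3.66% of probe sets that makes 0 calls in so few genes no result about them. All 7 measured genes of low-energy responses and amino acid catabolism rose in both genotypes, with median responses of 3.65 in phyA and 3.67 in WT and a median difference of -0.08. None was called, although MGL, which breaks down methionine, was called without phyA strong shade 3 (1.25, adjusted p = 0.0196; with all arrays 0.99 ± 0.344, adjusted p = 0.152). Of 10 autophagy genes, 10 rose in phyA and 8 in WT, with no called difference. When phyA strong shade 3 was left out, ATG8B (1.36, adjusted p = 0.0146) and ATG8H (1.08, adjusted p = 0.0338) were called higher. With all arrays they had 1.05 ± 0.377 (adjusted p = 0.166) and 0.90 ± 0.290 (adjusted p = 0.113).

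Both glucosinolate genes measured, BCAT4 and GSTU20, fell steeply in both genotypes. Their responses were -5.73 and -5.57 in phyA and -5.96 and -6.28 in WT, with differences of 0.23 ± 0.680 and 0.71 ± 0.440 that were not called. The 3 gibberellin receptors GID1A, GID1B and GID1C rose in both genotypes with differences of -0.08 to 0.57, none called. The clock gene GI had -0.91 ± 0.281 (adjusted p = 0.0943), and with phyA strong shade 3 and phyA shade 3 left out it was called (-0.79, adjusted p = 0.0448). The cold and dehydration list gave no call in 5. With those 2 arrays left out, its member COR47 was called (0.85, adjusted p = 0.0308; with all arrays 0.95 ± 0.297, adjusted p = 0.101). The 3 measured root markers, EXPA7, EXPA18 and PYK10, fell in both genotypes, and their differences of -0.33 to 0.14 were not called. In phyA in strong shade PYK10 had 9.58, 9.66 and 10.78, the last in the array that stood apart. The guard cell marker FMA (-0.37), the shoot apex marker CLV3 (0.11) and the starch regulator QQS (0.48) were not called.

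**Figure D4:**
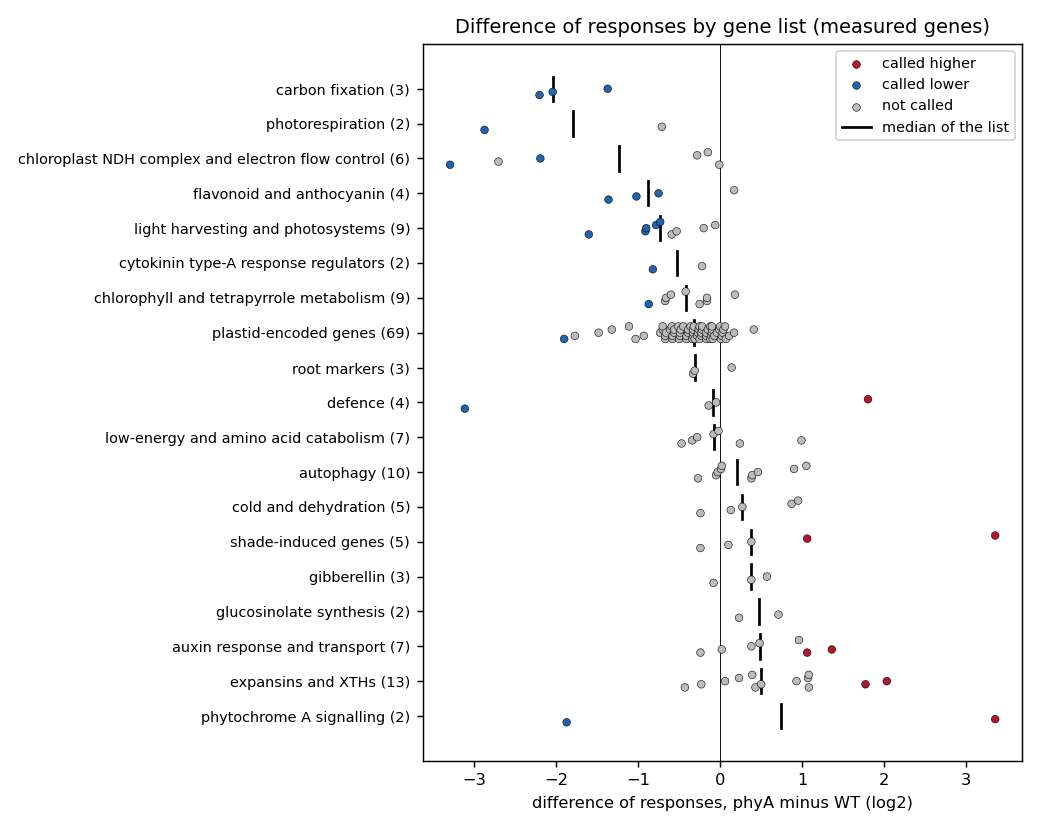
Difference of responses (x axis, phyA minus WT, log2) of each measured gene of the lists with at least 2 measured genes, with the number measured in brackets and the list median as a black line. Carbon fixation, photorespiration and NDH genes lie farthest left, with medians of -2.04, -1.79 and -1.23, and the 69 plastid-encoded genes centre at -0.32.

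The arrays of moderate shade (red to far-red ratio 0.7, 3 arrays per genotype) share no array with the comparison above, as labelled. Both tests came from 1 fit to all arrays of the series, with a shared estimate of spread for each probe set. A low spread favours a call in both, so the overlap of calls is not that of independent tests. In the moderate shade arrays, phyA against WT was called for 1086 probe sets (4.77%). Of the 833 probe sets, 544 were called there with the same sign and 1 with the opposite sign, which is 65.3% of the 833 and 50.1% of the 1086. By class, the share was 85.8% of enhanced responses (283 of 330), 65.4% of reversed (34 of 52), 65.3% of those in phyA only (188 of 288), 28.3% of lost (28 of 99) and 17.2% of weakened responses (11 of 64). Within each class the share was larger where the difference was below 0, so class and direction are mixed in these figures. For differences below and above 0 it was 89.4% and 63.8% of enhanced and 76.3% and 35.7% of reversed responses. It was 74.9% and 43.8% for phyA only, 54.3% and 14.1% for lost, and 25.0% and 12.5% for weakened. The classes also differed in the size of the genotype difference in strong shade, with a median of -1.32 for the enhanced decreases and 0.68 for decreases lost in phyA. The median in shade was -0.94 and 0.28. For increases lost in phyA, the median was -0.95 in strong shade and -0.48 in shade. Differences in these shares were not tested.

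Single genes showed both patterns. In shade the phyA minus WT difference of NdhN was -3.19 (adjusted p = 4.56e-07), with 3.98, 4.21 and 3.67 in phyA and 7.06, 7.20 and 7.18 in WT. FHL was higher in phyA by 2.2 (adjusted p = 1.64e-05), with 6.73, 6.46 and 6.12 in phyA and 4.44, 3.74 and 4.54 in WT. TUA6, with 9.42, 9.32 and 8.97 in phyA and 8.66, 9.13 and 9.10 in WT, overlapped between genotypes and was not called (0.28, adjusted p = 0.468). EXPB1 (0.48), AT4G18970 (0.63), THI2.2 (-0.57) and AT3G22060 (-0.33) were not called in shade either. With phyA strong shade 3 and phyA shade 3 left out, 680 of 1236 probe sets were called with the same sign in shade, 55%, and the shares by class were 67.4% for enhanced, 61.7% for reversed, 49.1% for phyA only, 34.2% for lost and 27.2% for weakened.

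**Figure D5:**
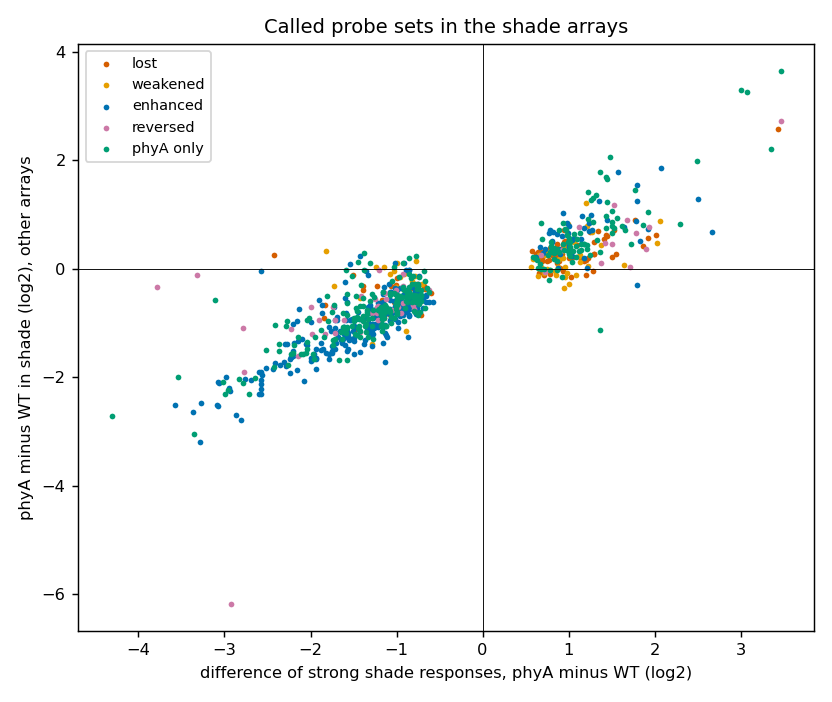
Each of the 833 called probe sets, with its difference of strong shade responses on the x axis and the genotype difference in the separate shade arrays on the y axis (both log2, phyA minus WT). Points fall mostly in the lower left and upper right. By their medians, weakened responses and decreases lost in phyA sit nearest to 0 on the y axis.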

How the data were processed

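Whole-seedling RNA was hybridised to 1-colour Affymetrix ATH1 arrays. The deposited values are intensity values per probe set on a linear scale, which the authors obtained with affy's RMA according to the submitters' processing notes, without versions stated in the material used. RMA usually returns log2 values, and the linear scale was read from the range of the values. Groups came from the sample labels. Log2 of each intensity was taken with no pseudocount and no further scaling. A model with group means for all 16 arrays was fitted in limma 3.58.1 (R 4.3.3), with 10 residual and 5.23 prior degrees of freedom, and the contrast of responses was tested over all 22746 probe sets with Benjamini-Hochberg adjustment. The fit was tested on simulated data. The number of arrays limits precision, and no background value per probe set was used here, so fold changes of dim probe sets may be understated.

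The platform annotation gave 13513 probe sets 1 gene, 503 several and 8730 none, and 13436 of the 13513 matched the reference table, TAIR10.1, used for names only. A gene with several probe sets is represented by its brightest. Named genes were the 6 largest differences in each class and direction, the 6 largest with a gene symbol, up to 4 per gene list, FHL, HYH and the measured shade-induced genes. The members and the 26 gene lists, of which 24 had a measured gene, were chosen with earlier results of these data known. Plastid genes were recognised by the locus prefix of the reference table. Replicate numbers are shared across groups, but the deviations of same-numbered arrays correlated at -0.0542 to 0.318, so they were not treated as pairs. Alternatives covered scaling, offset, dim probe sets, variance models, array weights, the arrays fitted, the block and leaving out arrays. A planned search of promoter sequence was not run.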

Additional observations from a re-analysis of the deposited data

Results flagged for a closer look

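The 833 probe sets whose responses differed between genotypes by limma's test of the difference itself are flagged as a whole, with their classes of 330 enhanced, 288 in phyA only, 99 lost, 64 weakened and 52 reversed. Single genes flagged are those, among the genes examined by name, whose called responses run in opposite directions. The reversed class held 26 probe sets with 1 gene, so the list is not complete. Those with a fall in phyA and a rise in WT were AT3G22060 (difference of responses -3.78 log2), AT4G21870 (-2.79), AT5G17670 (-2.14), AT4G18740 (-2.0), AT2G37540 (-1.98), psbN (-1.90) and PIFI (-1.21). Those with a rise in phyA and a fall in WT were AT5G61660 (1.93), AT5G48900 (1.79), AT2G47440 (1.51), AT5G41900 (1.42) and AT5G05400 (0.73). For psbN, phyA minus WT was 0.98 in white light, which was not called (adjusted p = 0.116).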

How the results depend on the processing

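The count of 833 became 867 with median centring, 875 with cyclic loess, 1013 with 16 added to each intensity, 917 without the dimmest 40% of probe sets, 867 with a trended and 841 with a robust variance, and 788 on the 10 arrays alone. Array weights, lowest for phyA strong shade 3 (0.335), gave 1361, with 532 enhanced, 451 in phyA only, 169 lost, 129 weakened and 80 reversed. One probe set per gene gave 393, with 149, 146, 47, 26 and 25 in the same order, and fewer features were tested. A minimum absolute difference of 1 left 535, with 47 lost, 26 weakened and 190 in phyA only. The offset gave 119 weakened and 81 reversed. Sorting by the ratio of responses gave 34 lost and 114 reversed. Without phyA strong shade 3 and phyA shade 3 there were 1236, with 552 enhanced and 81 reversed. Leaving out 1 array gave 463 to 926 in all, 43 to 129 lost, 21 to 66 weakened, 179 to 408 enhanced, 29 to 58 reversed and 157 to 316 in phyA only. With the replicate number as a block the count was 719, and 15 of the 161 genes examined by name lost their call and 1 gained one, although the numbers do not pair the arrays. No called gene among them changed sign under any alternative run, and 62 of the 114 called were called whichever array was left out. Of the 833, 43 (5.16%) were among the dimmest 40% of probe sets. The causes of these shifts were not tested.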
